A study of Mus musculus with 16 samples.

Results

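Genes of DNA replication and S phase were followed in CD4+CD8+ thymocytes of mice with altered Nfkbid. The set holds 39 genes given by mouse symbol, of 46517 gene identifiers in each file, and all 39 were matched and had enough counts to be tested. They cover origin licensing (8 genes), helicase activation (6), polymerases and primase (6), the sliding clamp, its loader and lagging-strand enzymes (7), nucleotide supply (5), E2F and cyclin E (3) and chromatin and histone supply (4). The mice were 5 NOD-AI4-60A mice carrying an Nfkbid transgene (2 females, 3 males), 5 NOD-AI4-Nfkbid-/- mice labelled as knockouts (1 female, 4 males) and 6 NOD-AI4 controls (3 females, 3 males), all 6 to 7 weeks old. All 3 groups share the NOD background, a strain prone to autoimmune diabetes, and AI4, the rearranged T cell receptor of an autoreactive CD8 T cell clone. Live CD4+CD8+ cells were sorted from each thymus and their RNA was sequenced as 1 library per mouse. The labels give neither the promoter that drives the transgene nor the knockout allele.

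Before a cell divides, the Mcm proteins are loaded at replication origins as a ring-shaped helicase, helper factors switch the helicase on, and polymerases copy the opened strands while a clamp holds them in place. E2F transcription factors, freed when cyclin-dependent kinases phosphorylate the retinoblastoma protein, raise most of these genes together as cells enter S phase. In the thymus, cells arriving at the CD4+CD8+ stage come from a burst of division, and most, but not all, CD4+CD8+ cells are small and no longer cycling.

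Library totals were 18546570 to 25836799 estimated counts in transgenic, 21662210 to 35637813 in knockout-labelled and 17955743 to 26586220 in control libraries, and no member had fewer than 177 counts in any library. Nfkbid itself was at 115 to 309.6 CPM (counts scaled to a common library size) in transgenic libraries, at 28.2 to 37.8 CPM in knockout-labelled libraries and at 28.9 to 36.9 CPM in controls, so the libraries labelled knockout had no fewer Nfkbid reads than controls and are called knockout-labelled here. Every control mouse has an identifier with the prefix AT and every other mouse one with the prefix LS. Any shift against controls is thus also a shift of LS against AT mice, and these cannot be told apart, whereas transgenic and knockout-labelled mice are compared inside the LS series. In bulk RNA, more dividing cells and more of a transcript per dividing cell cannot be told apart either.

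Replication genes were higher in both groups of LS mice than in controls. Against controls, 37 of the 39 members rose and 0 fell in transgenic libraries, where edgeR (quasi-likelihood test, adjusted p under 0.05) called 23.0% of all 14933 genes higher, 15.6% lower and 38.6% in either direction. In knockout-labelled libraries 37 also rose and 0 fell, where 16.4% of all genes were called higher, 10% lower and 26.4% in either direction. The pair not called, Tyms and Ccne2, was the same in both comparisons, which share their controls. The median log2 fold change of the members was 0.63 in transgenic libraries, or 1.55-fold, beside a median of 0.03 over all genes, and 0.59 in knockout-labelled libraries, or 1.51-fold, beside 0.02. Only 7.57% of all genes reached the members' median in transgenic and 5.83% in knockout-labelled libraries. Fold changes ran up to 0.82, and 22 members exceeded 1.5-fold in transgenic and 21 in knockout-labelled libraries. All transgenic libraries lay above all controls for 31 members, against 13.7% of all genes, and all knockout-labelled libraries did so for 24 members, against 8.77% of all genes. In males alone, 16 members were called in transgenic and 26 in knockout-labelled libraries, with medians of 0.50 in transgenic and 0.58 in knockout-labelled libraries. Over all genes, males alone left 3160 called in transgenic libraries, against 5765 with both sexes. In knockout-labelled libraries they left 2751, against 3942. Another setting left out the 4 control and knockout-labelled libraries with the most MHC class II transcripts (control replicate 1 and knockout-labelled replicates 1 to 3). There, 23 members were called in knockout-labelled libraries, with a median of 0.58, beside 1438 of all genes, against 3942 with all libraries. All transgenic libraries were kept, although their level of the class II gene H2-Aa (9.84 to 16.8 CPM) exceeded the 4.86 CPM of control replicate 1. Leaving out any 1 library left 34 to 37 called in each comparison, and Gins3, Prim1 and Slbp were the only members that lost a call in this way.

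**Figure D1:**
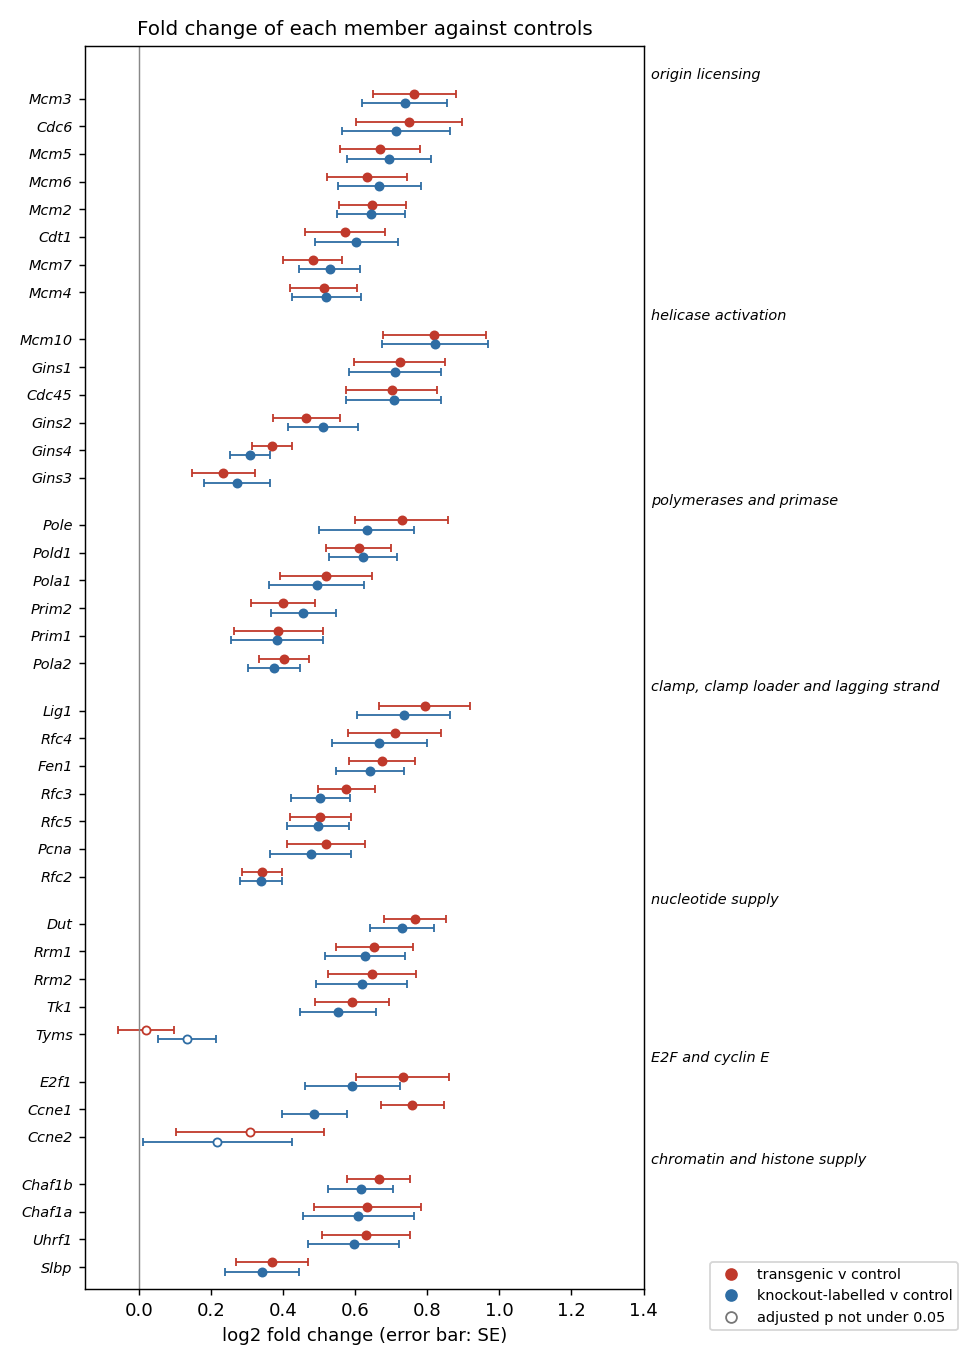
Log2 fold change of each of the 39 members in transgenic (red) and knockout-labelled libraries (blue) against controls, grouped by role; bars are standard errors and open circles mark an edgeR adjusted p not under 0.05. The values lie between 0.02 and 0.82, with open circles for Tyms and Ccne2.

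The 300 bases around the transcription starts of the members (250 before and 50 after, RefSeq, GRCm38.p6) were searched on both strands for the E2F octamers TTTCCCGC and TTTGGCGC and for CCAAT. The table held windows for 31 of the 39 members, 36 windows in all. An E2F octamer was in 27.8% of the member windows (10 of 36), in 17.9% of the windows of other replication genes and in 1.56% of all 32851 windows, while none of 30 windows of mitosis genes held one. CCAAT was in 52.8% of member windows, 73.3% of mitosis windows and 37.4% of all windows. The 10 genes with an octamer were Cdc6, Cdt1, Gins3, Mcm3, Mcm5, Mcm6, Mcm7, Pola1, Pold1 and Rfc3, and no octamer overlapped another. Members with an octamer had a median log2 fold change of 0.59 in transgenic and 0.61 in knockout-labelled libraries. The 21 members with a window but no octamer had 0.65 in transgenic and 0.61 in knockout-labelled libraries. All windows of Cdc6, Dut, E2f1 and Mcm7 lay inside the annotated gene, so bases before the gene's first annotated base were not searched. Of these genes, Dut and E2f1 are among the members without an octamer.

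The windows below, on the gene's own strand with E2F octamers in capitals, show helicase genes with 1 or 2 octamers (Mcm3 at chr1:20820263-20820562, minus strand; Mcm7 at chr5:138171834-138172133, minus strand, where a window at another start holds none; Mcm6 at chr1:128359656-128359955, minus strand, chosen after its motifs were seen). Beside them stand Mcm10 (chr2:5012742-5013041, minus strand), the member with the largest fold change and no octamer inside its window, and Tyms (chr5:30073576-30073875, minus strand), which was not called and has none. The Mcm10 window ends in tttggcg, all but the last base of TTTGGCGC, and bases past its edge were not searched. In Mcm6 the octamers end 103 and 40 bases before the start.
Mcm3: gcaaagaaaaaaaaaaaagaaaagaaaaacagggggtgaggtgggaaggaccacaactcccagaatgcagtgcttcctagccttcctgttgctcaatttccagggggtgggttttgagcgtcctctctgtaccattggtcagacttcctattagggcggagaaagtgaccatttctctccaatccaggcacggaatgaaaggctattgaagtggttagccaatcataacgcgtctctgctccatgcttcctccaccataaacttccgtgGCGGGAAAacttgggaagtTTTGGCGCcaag
Mcm7: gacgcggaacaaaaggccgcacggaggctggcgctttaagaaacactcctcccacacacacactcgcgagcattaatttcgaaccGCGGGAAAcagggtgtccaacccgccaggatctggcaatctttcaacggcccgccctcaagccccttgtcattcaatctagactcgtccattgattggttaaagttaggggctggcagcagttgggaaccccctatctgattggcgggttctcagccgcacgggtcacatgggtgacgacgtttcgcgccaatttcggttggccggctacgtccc
Mcm6: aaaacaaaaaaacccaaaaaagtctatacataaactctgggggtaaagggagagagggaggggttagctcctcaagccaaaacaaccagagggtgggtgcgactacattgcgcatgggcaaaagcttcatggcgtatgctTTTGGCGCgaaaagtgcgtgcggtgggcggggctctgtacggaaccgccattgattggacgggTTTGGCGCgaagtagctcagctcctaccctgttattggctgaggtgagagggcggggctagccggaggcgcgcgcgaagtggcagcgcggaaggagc
Mcm10: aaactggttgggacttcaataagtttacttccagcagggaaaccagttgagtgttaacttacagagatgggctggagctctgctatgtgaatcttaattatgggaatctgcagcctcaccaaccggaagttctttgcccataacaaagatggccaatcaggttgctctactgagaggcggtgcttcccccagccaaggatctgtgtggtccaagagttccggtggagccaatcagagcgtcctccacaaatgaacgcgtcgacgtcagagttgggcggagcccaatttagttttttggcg
Tyms: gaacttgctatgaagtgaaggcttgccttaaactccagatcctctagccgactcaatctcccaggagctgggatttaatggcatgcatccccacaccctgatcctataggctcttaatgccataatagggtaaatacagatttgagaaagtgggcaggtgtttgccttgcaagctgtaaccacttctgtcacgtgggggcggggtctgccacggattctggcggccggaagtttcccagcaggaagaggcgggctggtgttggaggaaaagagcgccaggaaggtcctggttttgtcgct

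Origin licensing genes, which build the helicase ring on DNA, rose in all 8 cases in both groups, with medians of 0.64 in transgenic and 0.65 in knockout-labelled libraries. Mcm7, a subunit of the ring (ENSMUSG00000029730, chromosome 5, 138164583 to 138172422, minus strand), had 240.3, 244, 211, 256 and 248 CPM in transgenic libraries and 221, 267, 260.5, 302 and 208 CPM in knockout-labelled libraries. Controls lay between 158 and 187 CPM, with a median of 167. All transgenic and knockout-labelled libraries lay above all controls, and the log2 fold change was 0.48 in transgenic libraries (SE 0.08, edgeR adjusted p = 3.32e-04) and 0.53 in knockout-labelled libraries (SE 0.09, edgeR adjusted p = 6.55e-04). Mcm3, another subunit of the ring (ENSMUSG00000041859, chromosome 1, 20802968 to 20820312, minus strand), had 198, 198, 162, 214 and 201 CPM in transgenic libraries and 168, 204, 202, 250.1 and 155 CPM in knockout-labelled libraries. Controls lay between 97.1 and 136 CPM, with a median of 111. Here too the LS libraries did not overlap the controls, and the log2 fold change was 0.76 in transgenic libraries (SE 0.11, edgeR adjusted p = 1.71e-04) and 0.74 in knockout-labelled libraries (SE 0.12, edgeR adjusted p = 7.81e-04). The printed Mcm3 window carries both octamers just after the start. The other ring subunits were alike. Mcm2 averaged 186 ± 14.7 CPM in transgenic, 190.3 ± 30.1 CPM in knockout-labelled and 118 ± 14.98 CPM in control libraries (log2 fold change 0.65, SE 0.09, in transgenic and 0.64, SE 0.10, in knockout-labelled libraries) (mean ± SD, n = 5, 5 and 6 here and below). Mcm5 averaged 205 ± 23.5 CPM in transgenic, 214 ± 38.3 CPM in knockout-labelled and 128 ± 19.1 CPM in control libraries (log2 fold change 0.67, SE 0.11, in transgenic and 0.69, SE 0.12, in knockout-labelled libraries). Mcm6, whose printed window has 2 octamers before the start, averaged 267 ± 22.6 CPM in transgenic, 278 ± 54.8 CPM in knockout-labelled and 171 ± 20.5 CPM in control libraries (log2 fold change 0.63, SE 0.11, in transgenic and 0.67, SE 0.12, in knockout-labelled libraries). Mcm4, with the smallest fold change of the ring in knockout-labelled libraries, averaged 206 ± 15.8 CPM in transgenic, 212 ± 32.1 CPM in knockout-labelled and 144 ± 18.97 CPM in control libraries (log2 fold change 0.51, SE 0.09, in transgenic and 0.52, SE 0.10, in knockout-labelled libraries). Cdt1, which brings the ring to origins, averaged 54.2 ± 5.41 CPM in transgenic, 55.9 ± 10.1 CPM in knockout-labelled and 36.3 ± 4.47 CPM in control libraries (log2 fold change 0.57, SE 0.11, in transgenic and 0.60, SE 0.12, in knockout-labelled libraries). Cdc6, the ATPase that loads it, averaged 53.3 ± 5.88 CPM in transgenic, 52.7 ± 12.3 CPM in knockout-labelled and 31.6 ± 5.28 CPM in control libraries (log2 fold change 0.75, SE 0.15, in transgenic and 0.71, SE 0.15, in knockout-labelled libraries). Knockout-labelled replicate 5, at 35.8 CPM of Cdc6, lay below the highest control at 38.6 CPM.

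**Figure D2:**
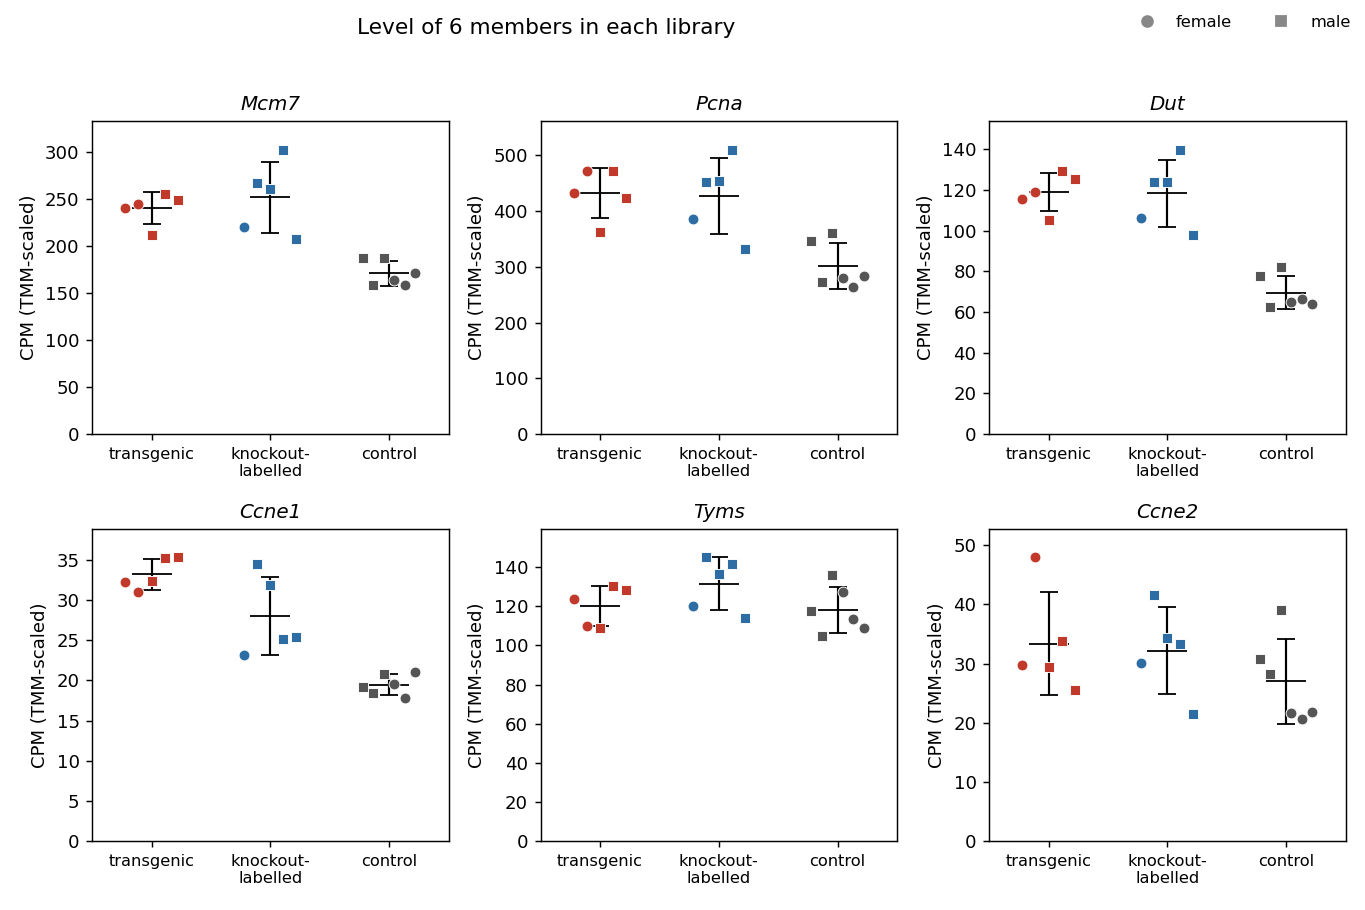
Level of 6 members in every library, in CPM on TMM-scaled library sizes; points are mice (circles female, squares male), horizontal bars the group mean and error bars the SD. Mcm7, Dut and Ccne1 show no overlap of transgenic or knockout-labelled libraries with controls, Pcna overlaps only through knockout-labelled replicate 5 at 332 CPM, and Tyms and Ccne2 overlap widely.

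Helicase activation genes differed widely among themselves, with all 6 called in both groups but with log2 fold changes from 0.23 to 0.82 in transgenic and from 0.27 to 0.82 in knockout-labelled libraries. Mcm10, which helps the helicase start to unwind DNA (ENSMUSG00000026669, chromosome 2, 4989714 to 5012791, minus strand), had the largest fold change of all 39 members. Its level was 45.9, 48.5, 37.2, 52.8 and 51.2 CPM in transgenic libraries and 38.9, 49.5, 50.6, 66.05 and 38.5 CPM in knockout-labelled libraries. Controls lay between 21.9 and 34.5 CPM, with a median of 24.6. The lowest LS library, transgenic replicate 3, stood above the highest control, and the log2 fold change was 0.82 in transgenic libraries (SE 0.14, edgeR adjusted p = 5.17e-04) and 0.82 in knockout-labelled libraries (SE 0.15, edgeR adjusted p = 0.00145). Cdc45, a permanent partner of the active helicase (ENSMUSG00000000028, chromosome 16, 18780447 to 18811987, minus strand), had 44.2, 49.6, 39.1, 52.6 and 49.5 CPM in transgenic libraries and 42.1, 49.8, 50.7, 62.7 and 35.9 CPM in knockout-labelled libraries. Controls lay between 24.7 and 35.3 CPM, with a median of 27.3. Again all LS libraries were above all controls, the closest being knockout-labelled replicate 5, and the log2 fold change was 0.70 in transgenic libraries (SE 0.13, edgeR adjusted p = 6.50e-04) and 0.71 in knockout-labelled libraries (SE 0.13, edgeR adjusted p = 0.00168). The GINS complex, the other partner, was uneven. Gins1 averaged 18.02 ± 1.96 CPM in transgenic, 18.2 ± 3.34 CPM in knockout-labelled and 10.9 ± 1.86 CPM in control libraries (log2 fold change 0.72, SE 0.13, in transgenic and 0.71, SE 0.13, in knockout-labelled libraries), with transgenic replicate 3 at 14.6 CPM apart from the other transgenic libraries at 18.2 to 19.3 CPM. Gins2 averaged 48.2 ± 4.47 CPM in transgenic, 50.03 ± 6.34 CPM in knockout-labelled and 34.9 ± 4.00 CPM in control libraries (log2 fold change 0.46, SE 0.09, in transgenic and 0.51, SE 0.10, in knockout-labelled libraries). The remaining subunits changed least in this role. Gins4 averaged 28.9 ± 1.46 CPM in transgenic, 27.8 ± 1.25 CPM in knockout-labelled and 22.3 ± 1.22 CPM in control libraries (log2 fold change 0.37, SE 0.06, in transgenic and 0.31, SE 0.06, in knockout-labelled libraries). Gins3 averaged 20.3 ± 0.594 CPM in transgenic, 21.2 ± 3.36 CPM in knockout-labelled and 17.2 ± 1.67 CPM in control libraries (log2 fold change 0.23, SE 0.09, in transgenic and 0.27, SE 0.09, in knockout-labelled libraries). Gins3 was called narrowly in both (edgeR adjusted p = 0.0456 in transgenic and 0.0348 in knockout-labelled libraries), and only 2 of 5 transgenic and 3 of 5 knockout-labelled libraries exceeded the highest control. Control replicate 3, at 20.4 CPM, was apart from the other controls at 15.7 to 17.5 CPM. The Gins3 call was lost in transgenic libraries without any 1 of control replicates 1, 2, 4, 5 or 6, knockout-labelled replicates 2, 3 or 5 or transgenic replicates 1 to 5 (edgeR adjusted p = 0.0526 to 0.196). In knockout-labelled libraries it was lost without any 1 of control replicates 1, 2, 5 or 6, knockout-labelled replicates 2, 3 or 4 or transgenic replicates 2, 4 or 5 (edgeR adjusted p = 0.0582 to 0.143). It was also lost in both with RLE scaling, no filter and the GC content and length correction, and with DESeq2 and the stricter filter in transgenic libraries. The GC content and length correction gave a log2 fold change of 0.104 in transgenic (edgeR adjusted p = 0.35) and 0.191 in knockout-labelled libraries (edgeR adjusted p = 0.112).

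Polymerase and primase genes rose in all 6 cases, with medians of 0.46 in transgenic and 0.47 in knockout-labelled libraries, below those of the licensing genes. Prim1, the catalytic subunit of the primase that lays down RNA primers (ENSMUSG00000025395, chromosome 10, 128015168 to 128030037, plus strand), had 57.5, 75.2, 54.2, 71.4 and 60.1 CPM in transgenic libraries and 53.3, 74.03, 71.6, 71.3 and 51.2 CPM in knockout-labelled libraries. Controls lay between 42.6 and 58.3 CPM, with a median of 46.4. Only 3 of 5 libraries in each LS group exceeded the highest control, and the log2 fold change was 0.39 in transgenic libraries (SE 0.12, edgeR adjusted p = 0.0219) and 0.38 in knockout-labelled libraries (SE 0.13, edgeR adjusted p = 0.0368). The Prim1 call was lost in transgenic libraries without any 1 of control replicates 1, 2 or 5 or transgenic replicates 2 or 4 (edgeR adjusted p = 0.0552 to 0.115). In knockout-labelled libraries it was lost without any 1 of control replicates 1, 2, 4 or 5, knockout-labelled replicates 2, 3 or 4 or transgenic replicate 5 (edgeR adjusted p = 0.0597 to 0.126). It was also lost in both with no filter (edgeR adjusted p = 0.0607 in transgenic and 0.0845 in knockout-labelled libraries) and in males alone. In knockout-labelled libraries, using only the groups compared lost it too (edgeR adjusted p = 0.0657). So did leaving out the libraries high in interferon-response (edgeR adjusted p = 0.165) or MHC class II transcripts (edgeR adjusted p = 0.279). Pole, the catalytic subunit of the leading-strand polymerase epsilon (ENSMUSG00000007080, chromosome 5, 110286306 to 110337474, plus strand), had 83.03, 88.4, 75.6, 111 and 94.7 CPM in transgenic libraries and 76.2, 91.02, 97.5, 103 and 62.8 CPM in knockout-labelled libraries. Controls lay between 44.5 and 66.00 CPM, with a median of 53.9. Knockout-labelled replicate 5 lay below the highest control, the other 9 LS libraries lay above it, and the log2 fold change was 0.73 in transgenic libraries (SE 0.13, edgeR adjusted p = 5.70e-04) and 0.63 in knockout-labelled libraries (SE 0.13, edgeR adjusted p = 0.00339). Pold1, the catalytic subunit of the lagging-strand polymerase delta, averaged 77.5 ± 7.70 CPM in transgenic, 78.7 ± 12.1 CPM in knockout-labelled and 50.6 ± 3.79 CPM in control libraries (log2 fold change 0.61, SE 0.09, in transgenic and 0.62, SE 0.09, in knockout-labelled libraries) and did not overlap the controls. Pola1, the catalytic subunit of polymerase alpha, which extends the primers, averaged 90.3 ± 12.4 CPM in transgenic, 91.6 ± 15.9 CPM in knockout-labelled and 62.7 ± 11.9 CPM in control libraries (log2 fold change 0.52, SE 0.13, in transgenic and 0.49, SE 0.13, in knockout-labelled libraries). Its partner Pola2 averaged 63.9 ± 4.61 CPM in transgenic, 62.6 ± 6.94 CPM in knockout-labelled and 48.4 ± 2.74 CPM in control libraries (log2 fold change 0.40, SE 0.07, in transgenic and 0.37, SE 0.07, in knockout-labelled libraries), again with no overlap. Prim2, the other primase subunit, averaged 37.7 ± 2.97 CPM in transgenic, 39.7 ± 4.93 CPM in knockout-labelled and 28.5 ± 3.35 CPM in control libraries (log2 fold change 0.40, SE 0.09, in transgenic and 0.46, SE 0.09, in knockout-labelled libraries).

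Clamp, clamp loader and lagging-strand genes rose in all 7 cases, with medians of 0.57 in transgenic and 0.50 in knockout-labelled libraries. Pcna, the sliding clamp that tethers polymerases to DNA (ENSMUSG00000027342, chromosome 2, 132249162 to 132253314, minus strand), had 433, 472, 362, 472 and 423 CPM in transgenic libraries and 387, 453, 455, 510.2 and 332 CPM in knockout-labelled libraries. Controls lay between 264 and 360.3 CPM, with a median of 282. Only knockout-labelled replicate 5 lay inside the control range, and the log2 fold change was 0.52 in transgenic libraries (SE 0.11, edgeR adjusted p = 0.0017) and 0.48 in knockout-labelled libraries (SE 0.11, edgeR adjusted p = 0.00605). Lig1, the ligase that joins lagging-strand fragments (ENSMUSG00000056394, chromosome 7, 13277283 to 13311433, plus strand), had 149, 154, 129.9, 176 and 163 CPM in transgenic libraries and 133, 163, 169.7, 188 and 109 CPM in knockout-labelled libraries. Controls lay between 76.9 and 112 CPM, with a median of 80.9. Knockout-labelled replicate 5 was again the 1 LS library below the highest control, and the log2 fold change was 0.79 in transgenic libraries (SE 0.13, edgeR adjusted p = 2.87e-04) and 0.73 in knockout-labelled libraries (SE 0.13, edgeR adjusted p = 0.00138). Fen1, the nuclease that trims the fragments before they are joined, averaged 71.7 ± 5.75 CPM in transgenic, 71.8 ± 11.2 CPM in knockout-labelled and 44.7 ± 5.64 CPM in control libraries (log2 fold change 0.67, SE 0.09, in transgenic and 0.64, SE 0.10, in knockout-labelled libraries). The loader subunits, which open the clamp and place it on DNA, differed in size of change. Rfc4 averaged 30.7 ± 4.48 CPM in transgenic, 30.5 ± 4.87 CPM in knockout-labelled and 18.7 ± 3.56 CPM in control libraries (log2 fold change 0.71, SE 0.13, in transgenic and 0.67, SE 0.13, in knockout-labelled libraries). Rfc3 averaged 30.7 ± 2.29 CPM in transgenic, 29.7 ± 3.65 CPM in knockout-labelled and 20.5 ± 2.16 CPM in control libraries (log2 fold change 0.57, SE 0.08, in transgenic and 0.50, SE 0.08, in knockout-labelled libraries). Rfc5 averaged 52.8 ± 4.96 CPM in transgenic, 52.9 ± 6.66 CPM in knockout-labelled and 37.2 ± 3.12 CPM in control libraries (log2 fold change 0.50, SE 0.09, in transgenic and 0.50, SE 0.09, in knockout-labelled libraries). Rfc2, with the smallest fold change of the loader, averaged 61.8 ± 1.21 CPM in transgenic, 62.5 ± 5.06 CPM in knockout-labelled and 48.6 ± 3.76 CPM in control libraries (log2 fold change 0.34, SE 0.06, in transgenic and 0.34, SE 0.06, in knockout-labelled libraries), and all its LS libraries (57.8 to 69.4 CPM) still lay above all controls (44.1 to 54.1 CPM). Rfc4 overlaps Eif4a2 on the opposite strand, whose mean count of 9215 far exceeds the 616 of Rfc4. Eif4a2 had a log2 fold change of -0.39 in transgenic and -0.37 in knockout-labelled libraries, opposite to Rfc4.

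By counts, nucleotide supply genes rose in 4 of 5 cases in each group, and Tyms was the exception. Rrm2, the regulated subunit of the ribonucleotide reductase that makes deoxynucleotides (ENSMUSG00000020649, chromosome 12, 24708241 to 24714146, plus strand), had 309, 320.1, 241, 342 and 302 CPM in transgenic libraries and 258, 348, 332, 347 and 241 CPM in knockout-labelled libraries. Controls lay between 171 and 254 CPM, with a median of 175. Transgenic replicate 3 and knockout-labelled replicate 5 lay inside the control range, and the log2 fold change was 0.65 in transgenic libraries (SE 0.12, edgeR adjusted p = 9.04e-04) and 0.62 in knockout-labelled libraries (SE 0.13, edgeR adjusted p = 0.00287). Dut, which keeps uracil out of DNA by destroying dUTP (ENSMUSG00000027203, chromosome 2, 125247190 to 125258608, plus strand), had 116, 119, 105, 129 and 126 CPM in transgenic libraries and 106, 124, 124, 139.8 and 97.8 CPM in knockout-labelled libraries. Controls lay between 62.4 and 81.98 CPM, with a median of 65.7. Neither LS group overlapped the controls, and the log2 fold change was 0.77 in transgenic libraries (SE 0.09, edgeR adjusted p = 1.72e-05) and 0.73 in knockout-labelled libraries (SE 0.09, edgeR adjusted p = 2.75e-04). Rrm1, the large reductase subunit, averaged 276 ± 31.6 CPM in transgenic, 276 ± 44.4 CPM in knockout-labelled and 175 ± 21.5 CPM in control libraries (log2 fold change 0.65, SE 0.11, in transgenic and 0.63, SE 0.11, in knockout-labelled libraries). Tk1, the salvage kinase of thymidine, averaged 42.1 ± 3.79 CPM in transgenic, 41.4 ± 6.97 CPM in knockout-labelled and 27.8 ± 2.88 CPM in control libraries (log2 fold change 0.59, SE 0.10, in transgenic and 0.55, SE 0.10, in knockout-labelled libraries).

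Tyms, thymidylate synthase, which makes the thymidine nucleotide (ENSMUSG00000025747, chromosome 5, 30058202 to 30073617, minus strand), had 124, 109.9, 109, 131 and 128 CPM in transgenic libraries and 120.3, 145, 137, 142 and 114 CPM in knockout-labelled libraries. Controls lay between 105 and 136 CPM, with a median of 116. These ranges overlapped, and the log2 fold change was 0.02 in transgenic libraries (SE 0.08, edgeR adjusted p = 0.869) and 0.13 in knockout-labelled libraries (SE 0.08, edgeR adjusted p = 0.235). The deposited TPM values, which the authors scaled for transcript length, gave a different picture of the same gene. They were 122, 117, 90.95, 139 and 113 TPM in transgenic libraries, 88.3, 130.3, 120.3, 132 and 92.4 TPM in knockout-labelled libraries and between 60.3 and 81.8 TPM in controls, so in TPM every LS library lay above every control. On the log2(TPM + 1) scale, limma fitted across all genes gave Tyms a difference of 0.71 in transgenic (adjusted p = 4.92e-04) and 0.63 in knockout-labelled libraries (adjusted p = 0.00367). The log2 ratio of group means in TPM exceeded that in CPM by 0.71 in transgenic and 0.53 in knockout-labelled libraries for Tyms, whereas for the other 38 members the gap lay between -0.18 and 0.10 in transgenic and between -0.21 and 0.16 in knockout-labelled libraries. Tyms counts were fractional in all 16 libraries, as were those of 18 other members. Values per transcript were not analysed here. Whether Tyms moved with the other members therefore depends on the unit.

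**Figure D3:**
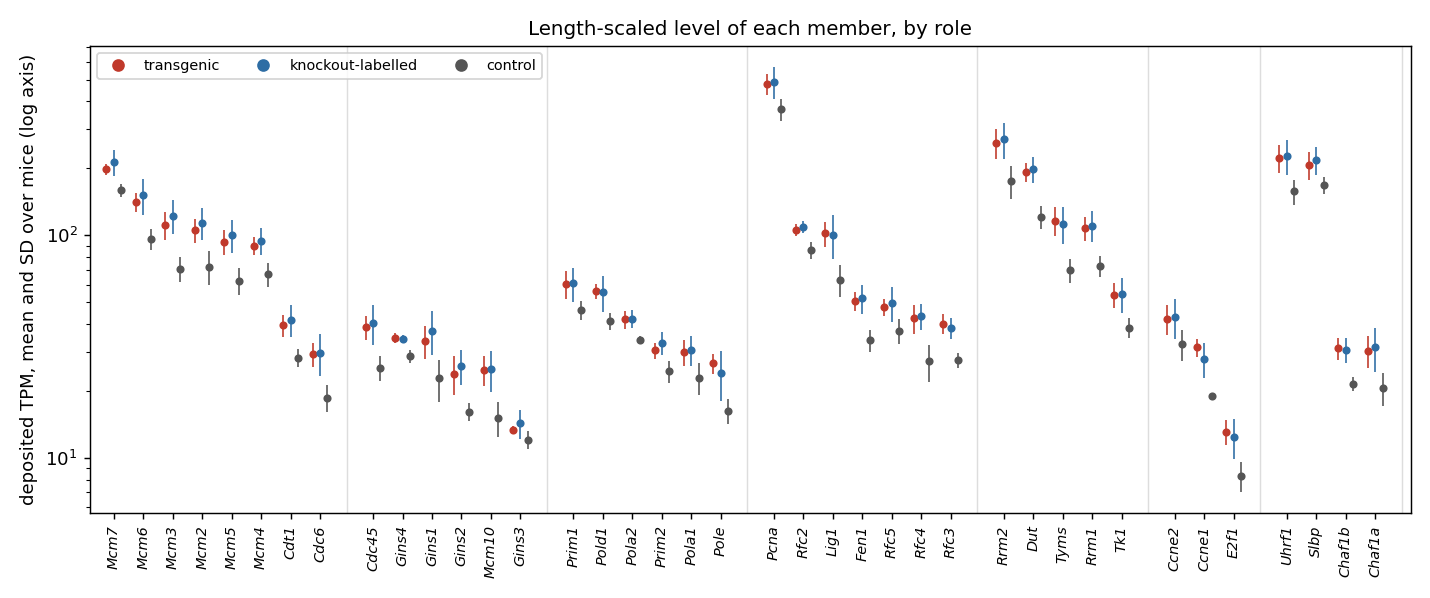
Deposited TPM of every member by role, as mean and SD over mice on a log axis, for transgenic, knockout-labelled and control libraries from left to right within each gene. Pcna is the highest member and E2f1 the lowest in each group, and Tyms shows a gap between LS libraries and controls that its counts do not.

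E2F and cyclin E genes, which drive entry into S phase, were called in 2 of 3 cases in each group. E2f1, an activating member of the E2F family (ENSMUSG00000027490, chromosome 2, 154559407 to 154569892, minus strand), had 21.9, 20.97, 20.2, 25.1 and 25.2 CPM in transgenic libraries and 20.2, 24.2, 23.8, 22.6 and 14.02 CPM in knockout-labelled libraries. Controls lay between 11.1 and 16.4 CPM, with a median of 12.9. Knockout-labelled replicate 5 lay inside the control range, and the log2 fold change was 0.73 in transgenic libraries (SE 0.13, edgeR adjusted p = 4.62e-04) and 0.59 in knockout-labelled libraries (SE 0.13, edgeR adjusted p = 0.00431). Ccne1, a cyclin that activates Cdk2 at the G1 to S border (ENSMUSG00000002068, chromosome 7, 38097984 to 38107534, minus strand), is given in full although it falls outside the naming rule, since it was the member with the smallest p between the LS groups, chosen after its values were seen. It had 32.2, 30.97, 32.4, 35.1 and 35.3 CPM in transgenic libraries and 23.1, 34.4, 31.8, 25.1 and 25.4 CPM in knockout-labelled libraries. Controls lay between 17.8 and 21.02 CPM, with a median of 19.4. Both LS groups lay above the controls, and the log2 fold change was 0.76 in transgenic libraries (SE 0.09, edgeR adjusted p = 1.81e-05) and 0.49 in knockout-labelled libraries (SE 0.09, edgeR adjusted p = 0.0014). Ccne2, the other cyclin E (ENSMUSG00000028212, chromosome 4, 11191351 to 11204779, plus strand), had 29.8, 47.9, 29.4, 33.9 and 25.6 CPM in transgenic libraries and 30.2, 41.6, 34.3, 33.3 and 21.5 CPM in knockout-labelled libraries. Controls lay between 20.6 and 38.97 CPM, with a median of 25.00. A single transgenic and a single knockout-labelled library exceeded the highest control, and the log2 fold change was 0.31 in transgenic libraries (SE 0.20, edgeR adjusted p = 0.254) and 0.22 in knockout-labelled libraries (SE 0.21, edgeR adjusted p = 0.473). Ccne2 overlaps Ints8 on the opposite strand, which held a mean of 1737 counts against 721 for Ccne2. After the correction for GC content and length, edgeR called Ccne2 in both (log2 fold change 0.46 with adjusted p = 0.0244 in transgenic and 0.44 with adjusted p = 0.0446 in knockout-labelled libraries), and in males alone its log2 fold changes were -0.165 in transgenic and -0.002 in knockout-labelled libraries.

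Chromatin and histone supply genes, which dress the new DNA, rose in all 4 cases, with medians of 0.63 in transgenic and 0.60 in knockout-labelled libraries. Uhrf1, which recruits the maintenance methyltransferase to newly copied DNA (ENSMUSG00000001228, chromosome 17, 56303321 to 56323486, plus strand), had 369.5, 357, 306, 414 and 385 CPM in transgenic libraries and 325, 384, 388, 469 and 261 CPM in knockout-labelled libraries. Controls lay between 209.8 and 288 CPM, with a median of 219.5. Knockout-labelled replicate 5, below the highest control, was the exception among LS libraries, and the log2 fold change was 0.63 in transgenic libraries (SE 0.12, edgeR adjusted p = 0.00111) and 0.59 in knockout-labelled libraries (SE 0.13, edgeR adjusted p = 0.00366). Chaf1b, a subunit of the chromatin assembly factor that deposits new histones (ENSMUSG00000022945, chromosome 16, 93883901 to 93906115, plus strand), had 32.6, 31.7, 29.9, 38.8 and 34.4 CPM in transgenic libraries and 29.7, 33.1, 34.2, 38.8 and 27.1 CPM in knockout-labelled libraries. Controls lay between 18.8 and 22.8 CPM, with a median of 20.9. Neither LS group overlapped the controls here, and the log2 fold change was 0.67 in transgenic libraries (SE 0.09, edgeR adjusted p = 4.94e-05) and 0.61 in knockout-labelled libraries (SE 0.09, edgeR adjusted p = 4.41e-04). Its partner Chaf1a averaged 63.7 ± 8.86 CPM in transgenic, 64.3 ± 14.6 CPM in knockout-labelled and 40.6 ± 7.59 CPM in control libraries (log2 fold change 0.63, SE 0.15, in transgenic and 0.61, SE 0.15, in knockout-labelled libraries). Slbp, which binds the stem-loop of histone mRNAs, averaged 173 ± 18.5 CPM in transgenic, 172 ± 25.3 CPM in knockout-labelled and 133 ± 15.8 CPM in control libraries (log2 fold change 0.37, SE 0.10, in transgenic and 0.34, SE 0.10, in knockout-labelled libraries). Its call in knockout-labelled libraries was lost without any 1 of control replicate 2 or knockout-labelled replicates 2, 3 or 4 (edgeR adjusted p = 0.0684 to 0.0805), and in transgenic libraries without transgenic replicate 2 (edgeR adjusted p = 0.0505).

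Taken per length, the members spanned a wide range of levels. Pcna was the highest at 480.5 ± 52.6 TPM in transgenic, 490.5 ± 79.04 TPM in knockout-labelled and 369 ± 41.2 TPM in control libraries (SD, n = 5, 5 and 6). Rrm2 followed with 260.1 ± 40.3 TPM in transgenic, 269.9 ± 49.98 TPM in knockout-labelled and 175 ± 29.2 TPM in control libraries. Uhrf1 had 223 ± 32.1 TPM in transgenic, 228 ± 41.7 TPM in knockout-labelled and 158 ± 19.97 TPM in control libraries. Slbp and Mcm7 were within the spread of Uhrf1 and had higher means than it in controls, at 168 TPM for Slbp and 159.8 TPM for Mcm7. At the low end Gins3 had 13.4 ± 0.586 TPM in transgenic, 14.3 ± 2.07 TPM in knockout-labelled and 12.1 ± 1.13 TPM in control libraries and E2f1 13.1 ± 1.67 TPM in transgenic, 12.4 ± 2.54 TPM in knockout-labelled and 8.33 ± 1.26 TPM in control libraries. Within the helicase ring, Mcm7 at 199 ± 11.2 TPM and Mcm4 at 89.9 ± 8.24 TPM in transgenic libraries were the ends of the range.

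Libraries of 1 group differed in how far their replication genes were raised. As the median over members of the log2 distance from the control mean, transgenic replicates 1 to 5 stood at 0.60, 0.66, 0.39, 0.76 and 0.66. Knockout-labelled replicates 1 to 5 stood at 0.45, 0.67, 0.73, 0.86 and 0.28. Controls stood at 0.16, -0.14, 0.25, -0.12, -0.13 and -0.04, so that knockout-labelled replicate 5 was barely above control replicate 3. The pooled SD within groups was 0.18. Knockout-labelled replicate 4, the deepest library, had the highest median in 6 of the 7 roles, among them 1.02 for origin licensing, but only 0.37 for E2F and cyclin E, below transgenic replicate 5 at 0.86. Its Ccne1 level of 25.1 CPM stood below the 34.4 and 31.8 CPM of knockout-labelled replicates 2 and 3, which had lower medians over all members. In controls, 38 members in replicate 1 and 37 in replicate 3 lay above the control mean, against 3 in replicate 2, 4 in replicate 4, 3 in replicate 5 and 16 in replicate 6. Control replicates 1 to 3 were males with 25052921 to 26586220 counts and replicates 4 to 6 females with 17955743 to 18888169, so depth and sex cannot be told apart among controls, and male replicate 2 sided with the females.

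**Figure D4:**
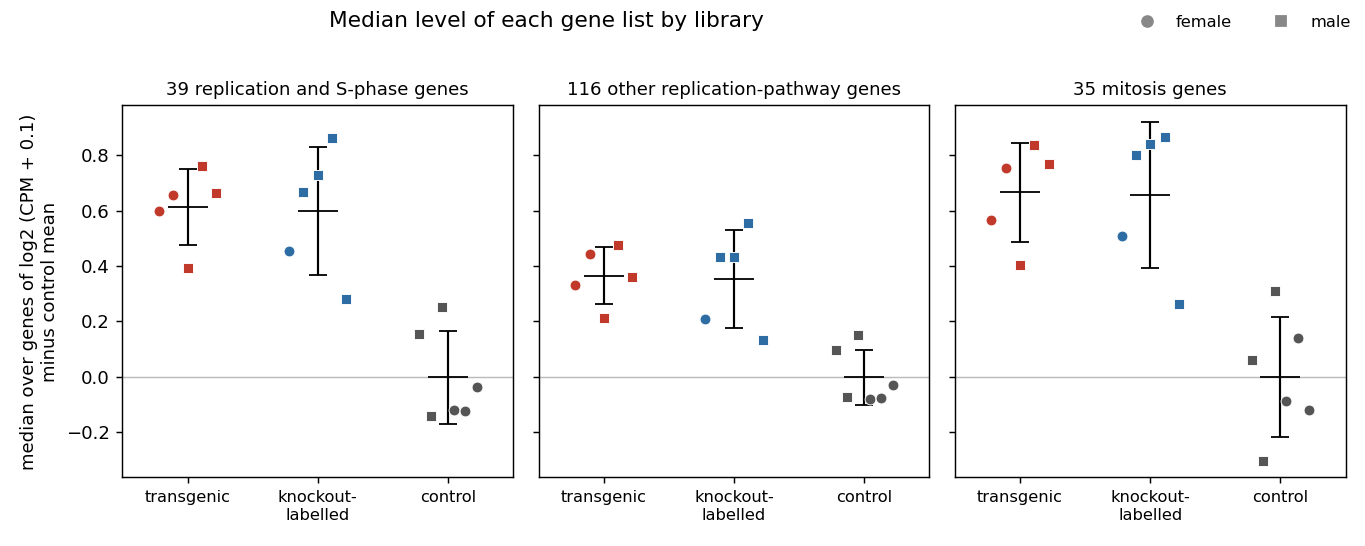
Median over genes of log2(CPM + 0.1) minus the control mean in each library, for the 39 members, 116 other genes of the replication pathway and 35 mitosis genes; circles are females, squares males, bars the group mean and SD. Transgenic libraries lie between 0.39 and 0.76, knockout-labelled between 0.28 and 0.86 and controls between -0.14 and 0.25 for the members, and knockout-labelled replicate 4 is the highest and replicate 5 the lowest LS library in all 3 panels.

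Between the LS groups no replication gene was called. With edgeR 0 of 39 members differed between transgenic and knockout-labelled libraries, where 1.07% of all genes were called higher, 0.0938% lower and 1.17% in either direction, 1 had an unadjusted p under 0.05 and DESeq2 called 0. The median log2 difference was 0.03, and the intervals of 2 SE around the members' differences all lay within -0.35 and 0.53, with a median SE of 0.11. Ccne1 had the smallest p, with a log2 difference of 0.27 (SE 0.09, edgeR adjusted p = 0.222). It was called higher by edgeR in transgenic libraries without knockout-labelled replicate 2 (log2 difference 0.34, adjusted p = 0.0487). The same held without the 4 control and knockout-labelled libraries with high MHC class II transcripts (0.42, adjusted p = 0.0465). That setting kept all transgenic libraries, also high in these transcripts, and knockout-labelled replicates 4 and 5, which were low. Ccne1 was at 25.1 and 25.4 CPM in those 2, against 23.1, 34.4 and 31.8 CPM in dropped replicates 1 to 3. Transgenic Ccne1 levels of 31.0 to 35.3 CPM overlapped knockout-labelled levels of 23.1 to 34.4 CPM. For 0 members did all transgenic libraries lie above all knockout-labelled libraries, against 2.33% of all genes.

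No member was called between the sexes. In males against females, 38 of 39 members had a positive difference, with a median of 0.12 on the log2 scale, but edgeR called 0, where 0.0603% of all genes were called higher, 0.0804% lower and 0.141% in either direction, 0 had an unadjusted p under 0.05, and DESeq2 called 0. The transgenic effect was compared between the sexes in control and transgenic mice alone. Its difference, male minus female, had a median of -0.18 over the members and was negative for 34 of 39. None was called by edgeR, which called 0.0278% of all genes, while 4 had an unadjusted p under 0.05 and DESeq2 called 1, Ccne2. Ccne2 was at 29.8 and 47.9 CPM in transgenic females, against 21.7, 20.6 and 21.8 CPM in control females. It was at 29.4, 33.9 and 25.6 CPM in transgenic males, against 30.8, 28.2 and 38.97 CPM in control males. The difference of the effects was -0.99 (SE 0.27, edgeR adjusted p = 0.222; DESeq2 -0.99, adjusted p = 0.0268), and of the edgeR alternatives run, leaving out transgenic replicate 1 was the 1 that called it (-1.30, adjusted p = 0.0209). Without transgenic replicate 2, the female at 47.9 CPM, it was -0.593 (edgeR adjusted p = 0.525).

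Other genes of replication moved the same way but less uniformly. Of 18 origin recognition and firing genes, 12 rose and 1 fell in transgenic and 11 rose and 1 fell in knockout-labelled libraries. Orc1, the subunit of the origin recognition complex that cycles with cell division, had a log2 fold change of 0.78 (SE 0.15) in transgenic and 0.75 (SE 0.15) in knockout-labelled libraries. Gmnn, the inhibitor of the loader Cdt1, had 0.83 (SE 0.14) in transgenic and 0.74 (SE 0.15) in knockout-labelled libraries, and Dscc1, of a clamp loader for cohesion, had 0.87 (SE 0.15) in transgenic and 0.74 (SE 0.15) in knockout-labelled libraries. Orc4, another origin recognition subunit, fell by 0.40 (SE 0.09) in transgenic and by 0.47 (SE 0.09) in knockout-labelled libraries.

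Of 20 fork polymerase and accessory genes, 17 rose and 1, the topoisomerase Top1, fell in transgenic libraries (by 0.20, SE 0.06), and 15 rose and 0 fell in knockout-labelled libraries. The polymerase delta subunit Pold2 had 0.68 (SE 0.10) in transgenic and 0.67 (SE 0.10) in knockout-labelled libraries. Timeless, of the fork protection complex, had 0.60 (SE 0.09) in transgenic and 0.71 (SE 0.10) in knockout-labelled libraries. Rnaseh2a, which removes RNA from DNA, rose by a smaller amount with a small error, 0.38 (SE 0.05) in both groups. Of 18 nucleotide synthesis genes, 15 rose in transgenic and 14 in knockout-labelled libraries and 0 fell. Among them the purine enzyme Gart had 0.60 (SE 0.08) in transgenic and 0.61 (SE 0.09) in knockout-labelled libraries, and the CTP synthase gene Ctps had 0.52 (SE 0.09) in transgenic and 0.59 (SE 0.09) in knockout-labelled libraries.

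Samhd1, which destroys deoxynucleotides, was the 1 pathway gene of 116 that differed between the LS groups. It averaged 16.9 ± 7.66 CPM in transgenic, 5.24 ± 1.07 CPM in knockout-labelled and 4.85 ± 1.55 CPM in control libraries. Its log2 difference between transgenic and knockout-labelled libraries was 1.71 (SE 0.27, edgeR adjusted p = 0.0041). Beside it, of 9 tested markers of macrophages and dendritic cells, which also express Samhd1, edgeR called 0 between transgenic and knockout-labelled libraries, with 7 at an unadjusted p under 0.05 and a median log2 difference of 1.58. Against controls 8 of the 9 rose in transgenic libraries. These markers summed to 15.2 to 21.0 CPM in transgenic, 1.56 to 10.6 CPM in knockout-labelled and 2.46 to 9.07 CPM in control libraries. Without the control and knockout-labelled libraries high in MHC class II transcripts, the sums were 1.56 and 3.16 CPM in knockout-labelled replicates 4 and 5 and 2.46 to 4.00 CPM in controls. In the same comparison, 5 of 10 B cell markers were called higher in transgenic libraries and 0 lower. The interferon-response gene Ifit1 was at 9.2 to 145 CPM in transgenic, 3.2 to 8.08 CPM in knockout-labelled and 1.82 to 67.1 CPM in control libraries. It was not called between transgenic and knockout-labelled libraries (edgeR adjusted p = 0.134). The part of either marker list or of the interferon response in the Samhd1 result was not tested.

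Of 29 genes of G1 to S control, 11 rose and 2 fell in transgenic and 9 rose and 1 fell in knockout-labelled libraries. Ccna2, the S-phase cyclin, had 0.80 (SE 0.13) in transgenic and 0.71 (SE 0.14) in knockout-labelled libraries. The G1 kinase Cdk4 had 0.40 (SE 0.06) in both, and the E2F partner Rbl1 had 0.39 (SE 0.06) in transgenic and 0.28 (SE 0.07) in knockout-labelled libraries. Cdkn1b, the kinase inhibitor p27, fell by 0.25 (SE 0.04) in transgenic and by 0.20 (SE 0.04) in knockout-labelled libraries. The cyclins Ccna2 and Ccne1 rose in both, whereas Ccne2 was not called in either. Lin52, of a complex that represses cell cycle genes in resting cells, fell by 0.29 (SE 0.08) in transgenic libraries. In knockout-labelled libraries it was not called (log2 fold change -0.13, SE 0.08, edgeR adjusted p = 0.228).

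Of 13 S-phase chromatin genes, 6 rose in transgenic and 8 in knockout-labelled libraries and 0 fell. The maintenance methyltransferase Dnmt1 had 0.46 (SE 0.08) in transgenic and 0.43 (SE 0.08) in knockout-labelled libraries, and the histone chaperone Ssrp1 had 0.41 (SE 0.07) in each. Of 18 fork checkpoint and repair genes, 15 rose and 1, the mismatch repair gene Msh6, fell in transgenic libraries (by 0.17, SE 0.04), and 15 rose and 0 fell in knockout-labelled libraries. Fancd2, which marks stalled forks, had 0.82 (SE 0.12) in transgenic and 0.74 (SE 0.12) in knockout-labelled libraries. Over all 116 pathway genes the median was 0.34 in each comparison, with 76 higher and 5 lower in transgenic and 72 higher and 2 lower in knockout-labelled libraries.

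Genes of mitosis, a later phase, rose about as far as the members. Of 35, all rose in transgenic libraries and 34 rose in knockout-labelled libraries, with medians of 0.65 in transgenic and 0.64 in knockout-labelled libraries. The exception was the kinesin Kif20b, with a log2 fold change of 0.28 (edgeR adjusted p = 0.139). The mitotic kinase Plk1 had 0.88 (SE 0.11) in transgenic and 0.81 (SE 0.11) in knockout-labelled libraries, and the cyclin Ccnb2 had 0.95 (SE 0.12) in transgenic and 0.84 (SE 0.12) in knockout-labelled libraries. The same libraries stood at the ends in both sets: the mitosis median was lowest among LS libraries in knockout-labelled replicate 5 (0.26), highest in knockout-labelled replicate 4 (0.87), and highest among controls in replicate 3 (0.31).

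**Figure D5:**
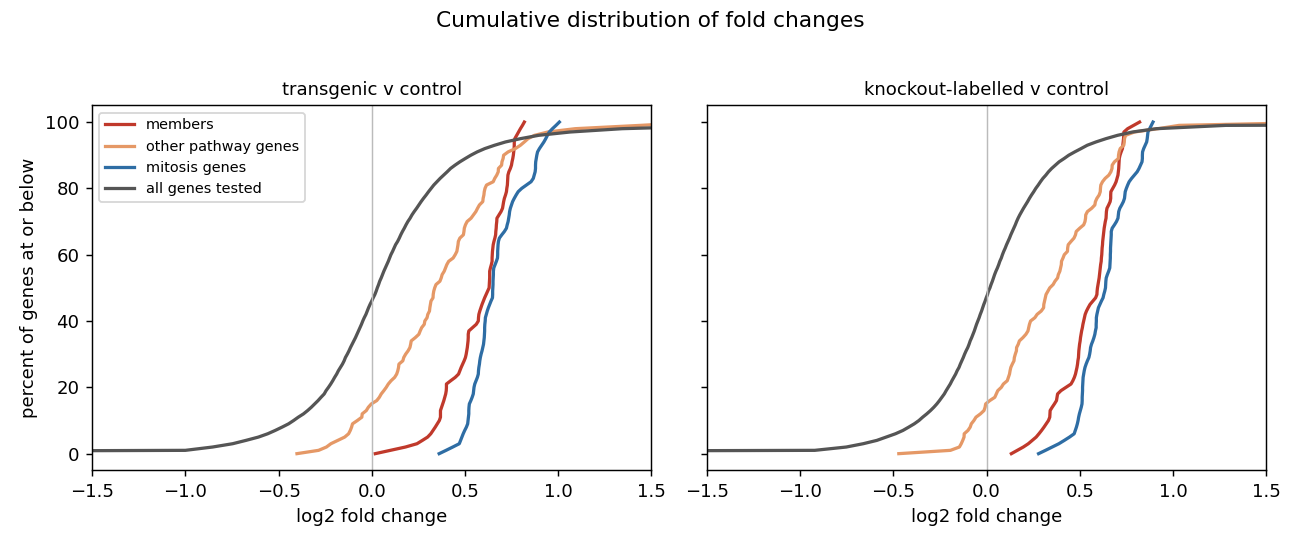
Cumulative distribution of log2 fold changes against controls in transgenic (left) and knockout-labelled libraries (right) for members, other pathway genes, mitosis genes and all genes tested; the vertical axis is the percent of genes at or below each value. Members and mitosis genes lie right of 0 throughout, with medians of 0.63 and 0.65 on the left and 0.59 and 0.64 on the right, and all genes centre near 0.

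The sorted identity and the state of the cells moved beside these genes. Of 12 CD4+CD8+ thymocyte markers, 1 rose and 8 fell in transgenic and 1 rose and 3 fell in knockout-labelled libraries; their summed level was 6103 to 6795 CPM in transgenic, 6327 to 7859 CPM in knockout-labelled and 6018 to 8917 CPM in control libraries, so the labelled cell type was present in all. Control replicate 6 stood apart at 6018 CPM, and the other controls, at 7835 to 8917 CPM, lay above all transgenic libraries. The gene that rose was Ptcra, the pre-T cell receptor chain of immature thymocytes (log2 fold change 0.60, SE 0.23, in transgenic and 0.76, SE 0.24, in knockout-labelled libraries). Of 11 tested markers of immature thymocytes, 4 rose in transgenic and 3 in knockout-labelled libraries and 0 fell, with summed levels of 353 to 511 CPM in transgenic, 344 to 450.4 CPM in knockout-labelled and 284 to 454 CPM in control libraries, where control replicate 6 was the highest. None of these lists had a gene at 0 in all libraries. Immediate-early and handling genes fell in 7 of 9 tested cases in each group and summed to 292 to 337 CPM in transgenic, 283 to 446 CPM in knockout-labelled and 443 to 708 CPM in control libraries. Of 10 B cell markers, 9 rose and 0 fell in transgenic and 3 rose and 2 fell in knockout-labelled libraries, and 5 were higher and 0 lower in transgenic than in knockout-labelled libraries. Most of their summed level was Ighm (a mean of 599.7 CPM in transgenic, 392.1 CPM in knockout-labelled and 400.2 CPM in control libraries). They summed to 659 to 835 CPM in transgenic, 360 to 479 CPM in knockout-labelled and 393 to 459 CPM in control libraries. Of mature thymocyte markers, 5 rose and 0 fell in transgenic and 0 rose and 1 fell in knockout-labelled libraries, with sums of 2885 to 3373 CPM in transgenic, 2356 to 2998 CPM in knockout-labelled and 2806 to 3290 CPM in control libraries, with control replicate 6 again the highest. No erythroid or epithelial and stromal marker was called in either. The part of these shifts in the rise of the replication genes was not tested.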

How the data were processed

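RNA was extracted with TRIzol from sorted live CD4+CD8+ thymocytes and made into KAPA stranded libraries, per the labels' protocols. Each of 16 deposited files gives the authors' estimated counts and TPM for 46517 gene identifiers, of which 46005 matched a GENCODE M21 symbol. Bowtie 1.0.0, SAMtools 0.1.18, edgeR 3.24.3 and GRCm38 are named in the submitters' processing notes. Which program counted the reads, and whether by strand, was not given in the sources used here. Per the deposited files, the TPM values sum to 1000000 in each library. Of the authors' estimated counts above 0, 58.7% were whole within 1e-06. The 512 identifiers without a symbol held 0.171% of counts.

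The estimated counts, rounded to integers, went into edgeR 4.0.16 (filterByExpr, TMM, robust quasi-likelihood fit, group and sex as terms, all 16 libraries, R 4.3.3), with two-sided tests, Benjamini-Hochberg adjustment over 14933 genes and a threshold of 0.05. The difference of the transgenic effect between sexes was fitted in control and transgenic libraries (14385 genes). CPM used TMM-scaled library sizes, and library medians used log2(CPM + 0.1). On counts simulated for knockout-labelled against control libraries (14933 genes), 67% of 1.5-fold and 75% of 2-fold changes were recovered and 6 unmoved genes were called. The labels do not say whether mice were littermates, and p-values measure the spread between mice.

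The genes and lists were chosen with earlier results of these data known. Values per library are given for the member with the highest TPM and the member with the largest fold change in knockout-labelled libraries in each role, and for every member not called. Of the other pathway and mitosis lists, the genes with the smallest p and every gene called lower are named. A gene that this rule names is not reported here. Alternatives were other scalings (RLE, library totals), no filter or at least 1 CPM in 5 libraries, DESeq2 1.42.0, a GC content and length correction, no sex term, a replicate block, males only, only the groups compared, and each library left out. Chosen after seeing the data was limma 3.58.1 on log2(TPM + 1). So was leaving out the libraries with high interferon-response transcripts (control 2, transgenic 3 and 5). So was leaving out the control and knockout-labelled libraries with high MHC class II transcripts (control 1, knockout-labelled 1 to 3). All transgenic libraries were also high in MHC class II transcripts and were kept there. RefSeq promoter windows (GRCm38.p6) held no entry for Prim2, Mcm4, Rfc2, Ccne2, Gins4, Pole, Gins1 and Gins2. Of the members, 12 overlap another gene with a mean count of at least 10. An overlapping gene held the larger mean count for Cdt1, Cdc45, Gins2, Rfc4, Rfc5, Ccne2 and Chaf1a. Only for Cdt1 was it on the same strand (Gm20388, 2415 against 1126 counts). Gm20388 had a log2 fold change of 0.16 in transgenic and 0.11 in knockout-labelled libraries.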

Additional observations from a re-analysis of the deposited data

Results flagged for a closer look

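Each member was examined within each group for a library far from the others, 117 sets of values in all. Chance alone flags about 1 in 20 such sets, and 2 of the 117 were flagged, a smaller share than that. Gins1, a subunit of the helicase partner GINS, was at 14.59 CPM in transgenic replicate 3, the lowest of the transgenic libraries, while the others lay between 18.24 and 19.32 CPM. Gins3, another subunit, was at 20.39 CPM in control replicate 3, the highest of the controls, while the others lay between 15.69 and 17.46 CPM.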

How the results depend on the processing

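In each comparison with controls 0 members fell under any alternative, and the members' median kept its sign (0.50 to 0.68 in transgenic, 0.47 to 0.64 in knockout-labelled libraries). Males alone left 16 members (of 37) and 3160 genes (of 5765) called in transgenic libraries, and 26 members (of 37) and 2751 genes (of 3942) in knockout-labelled libraries. Without the high class II libraries, 23 members (of 37) and 1438 genes (of 3942) were called in knockout-labelled libraries, and 2289 genes without the high-interferon libraries. For transgenic against knockout-labelled libraries, the 174 genes called became 342 with DESeq2, 106 in males and 278 with no filter, and members called 1 (Ccne1) without the high class II libraries and 0 to 1 without single libraries. For sex, the 21 genes called became 110 with DESeq2, 41 with the GC content and length correction, 13 with the replicate block, 11 without the high class II libraries and 17 to 50 without single libraries. For the transgenic effect by sex, the 4 genes called became 145 with DESeq2, 2 with limma on TPM, 15 with no filter, 2 without the high class II libraries, 0 without the high-interferon libraries and 0 to 300 without single libraries (300 without transgenic replicate 1). Members called there were 1 (Ccne2) with DESeq2 and 0 to 1 without single libraries. The causes were not tested.

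Same-numbered mice did not all correlate above 0.1 (-0.0884 to 0.0934 against controls, 0.00152 to 0.273 between transgenic and knockout-labelled mice), so the numbers were not taken as pairs. With the replicate block 36 members were called in each comparison with controls, Slbp being lost in knockout-labelled (adjusted p = 0.0526) and Gins3 in transgenic libraries (adjusted p = 0.0621), and the median effect by sex was -1.05 against -0.18.

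Tyms changed sign in transgenic libraries: its log2 fold change was -0.015 with DESeq2 and with RLE, -0.064 with the GC content and length correction, -0.01 with no filter and with only the groups compared, -0.018 with the stricter filter, -0.019 without the high-interferon libraries, and -0.062 to 0.062 without single libraries. Ccne2 was -0.165 in transgenic and -0.002 in knockout-labelled libraries in males, and 0.0 in knockout-labelled libraries without the high class II libraries. Over all genes, calls higher and lower split 3438 to 2327 in transgenic and 2449 to 1493 in knockout-labelled libraries. In transgenic libraries the split became 2935 to 2807 with RLE, 3027 to 2883 with DESeq2, 2355 to 3351 with the GC content and length correction and 1938 to 3410 in TPM. In knockout-labelled libraries it became 2169 to 1817, 2309 to 2025, 1939 to 2050 and 1326 to 1840 under the same settings.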
